A study of Mus musculus with 2 samples.

Results

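The 5 genes described here are Tes, Gm20713, 6330411D24Rik, 9130019P16Rik and 4932443L11Rik, of 55450 genes listed in each library. They were chosen by a measured value: among genes with at least 200 UMIs (unique molecular identifiers, the tags by which RNA molecules are counted once) in oligodendrocyte (OL) precursors, they had the lowest ratio of the WMI to the control library. That ratio is therefore a description and no finding. The question asked of the data was whether the lower level was also seen within each OL stage, and in astrocytes, myeloid cells and neurons, or in the OL lineage alone.

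The data were 2 scRNA-seq libraries from droplets (10x Genomics) of cerebral cortex of C57BL/6 mice, 1 control and 1 with white matter injury (WMI), a model of the injury seen in preterm infants. Per the labels, WMI mice had the right common carotid artery tied on postnatal day 7 with 1 h of hypoxia, and cortex of the tied side was taken on postnatal day 14, at 2 weeks of age. Control cortex is given there as the same side of control mice. The paper instead speaks of control and WMI sides, with the unaffected side as control, and of sham hemispheres in a figure. Which of these the control library holds was not assumed. The same day of operation (7), hours of hypoxia (1) and day of sampling (14) are listed for the control library. What the operation of control mice was is not described in the labels. The labels speak of nuclei, whereas the paper describes dissociated cells, an earlier operation and sampling and a longer hypoxia, and neither version was assumed. The paper's methods speak of replicates in each group, whereas 1 library per group was analysed here, and how replicates and mice map to these libraries is not given in the sources used here. With 1 library per group no test was possible, cells are not replicates, and all intervals below are 95% intervals that cover counting error only.

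After filtering, 8755 control and 7571 WMI cells were kept, with median depths of 4202 and 4974 UMIs. Clusters were named from marker lists, and a name such as "OPC-like" says only that the markers were found. OL precursors are the OPC-like cells (337 control, 491 WMI) and the pre-OL-like cells (153 control, 453 WMI), as named from sub-clusters of the OL lineage. Before that second clustering, the main OPC-like cluster had Pdgfra, Cspg4 and Lhfpl3 among its leading genes. The main pre-OL-like cluster had Bcas1, Enpp6 and Itpr2. Not every sub-cluster had all of these among its leading genes. OPC-like cells made up 68.8% (64.5 to 72.9) of the 490 control precursors and 52.0% (48.8 to 55.2) of the 944 WMI precursors, so values are also given within each stage. Mature OL-like cells numbered 91 and 42, astrocyte-like cells 501 and 583, microglia-like cells 454 and 1166, excitatory neuron-like cells 4056 and 2192, and inhibitory neuron-like cells 463 and 375. Another 2559 control and 2000 WMI cells stayed in unnamed clusters, and 36 barcode sequences occurred in both libraries.

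OPCs are the dividing, migrating cells from which OLs arise, and they pass through a short pre-OL stage before they wrap axons with myelin. Damage of white matter in the preterm brain is known for a failure of these precursors to mature. Tes encodes testin, a LIM domain protein found at focal adhesions and along actin filaments, where it binds zyxin, talin and Ena/VASP proteins. The other 4 genes are annotated as long noncoding RNAs, transcripts that are not translated, are often kept in the nucleus and are often far more restricted to a cell type than mRNAs are. Their functions are not known well enough to be stated.

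All coordinates are from GENCODE M21 on GRCm38, whose identifiers and symbols matched all 55450 genes of the files. Tes (ENSMUSG00000029552) lies on the plus strand at chr6:17065149-17105828, and its whole length is covered on the minus strand by the antisense gene Gm4876. Gm20713 (ENSMUSG00000093497, chr14:115788144-115871278, minus strand) lies inside Gpc5, a glypican gene of the plus strand. 6330411D24Rik (ENSMUSG00000110067, chr4:142598441-143074839, minus strand) overlaps only Gm37624, which had no UMI in any class described here, and its nearest coding neighbours are Kazn and Prdm2. 9130019P16Rik (ENSMUSG00000073067, chr6:54269681-54430221, minus strand) runs opposite to Chn2, Prr15 and Wipf3 and with Gm15527 on its own strand. 4932443L11Rik (ENSMUSG00000086805, chr8:4162522-4206882, minus strand) is annotated as antisense to Evi5l. Tes and 9130019P16Rik are on the same chromosome but megabases apart, so the 5 genes do not form a cluster.

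Promoter sequences (250 bases before to 50 after the start) were at hand for 2 of the 5 genes, from RefSeq on GRCm38.p6. They are shown because no other member had a promoter at hand. They share little: the Tes promoter is 64.7% G or C and the 9130019P16Rik promoter 56.0%. Capitals mark the letters searched for on both strands, ACGTG (the core of hypoxia response elements), ACAAAG (a SOX protein core) and CAGCTG (an E-box), which occur in 19.6%, 18.7% and 16.3% of all 32851 promoters in the table.
Tes promoter, chr6:17064899-17065198, plus strand: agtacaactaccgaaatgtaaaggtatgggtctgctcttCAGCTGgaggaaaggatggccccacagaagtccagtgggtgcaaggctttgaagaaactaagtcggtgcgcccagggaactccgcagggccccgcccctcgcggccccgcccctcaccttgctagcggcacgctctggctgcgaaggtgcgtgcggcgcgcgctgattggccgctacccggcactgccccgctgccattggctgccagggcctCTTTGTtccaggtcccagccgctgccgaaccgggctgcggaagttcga
9130019P16Rik promoter, chr6:54430172-54430471, minus strand: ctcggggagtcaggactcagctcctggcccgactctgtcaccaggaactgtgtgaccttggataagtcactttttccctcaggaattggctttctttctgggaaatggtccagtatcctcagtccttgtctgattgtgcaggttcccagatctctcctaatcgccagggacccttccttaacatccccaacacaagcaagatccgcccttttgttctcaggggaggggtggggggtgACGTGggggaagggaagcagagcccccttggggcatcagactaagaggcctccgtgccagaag
The Tes window held the E-box letters once and the SOX letters once, on its minus strand at the start site, and the 9130019P16Rik window held the hypoxia letters once, 13 bases before the start. Such matches are common in promoters and describe letters, not binding.

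The 3′ ends of the 4 noncoding RNAs are shown, since capture by the poly(A) tail starts from the end of a transcript. Whether the counted UMIs came from these annotated ends was not tested. Each line gives the last 120 bases of the longest transcript of GENCODE M21, with the polyadenylation signal AATAAA in capitals where it occurs.
Gm20713: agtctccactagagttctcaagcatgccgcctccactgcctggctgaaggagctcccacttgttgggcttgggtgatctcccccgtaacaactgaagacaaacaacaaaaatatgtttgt
6330411D24Rik: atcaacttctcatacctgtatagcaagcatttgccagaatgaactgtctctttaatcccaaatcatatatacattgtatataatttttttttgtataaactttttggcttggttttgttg
9130019P16Rik: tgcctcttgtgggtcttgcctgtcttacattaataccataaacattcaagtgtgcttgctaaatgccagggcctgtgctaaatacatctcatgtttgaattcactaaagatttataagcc
4932443L11Rik: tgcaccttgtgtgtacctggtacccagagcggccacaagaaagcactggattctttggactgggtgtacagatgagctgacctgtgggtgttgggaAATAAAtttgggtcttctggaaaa
The signal was found in 1 of the 4 ends, that of 4932443L11Rik, 24 bases before the last base. The spliced transcripts are 435, 1568, 4486 and 2827 bases long, with 4, 3, 14 and 10 exons.

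In OL precursors (both stages together), Tes had 153 UMIs in the control and 93 in the WMI library, or 56.1 (47.5 to 65.7) and 19.7 (15.9 to 24.1) CPM (UMIs of the gene per 1000000 UMIs of these cells). Gm20713 had 234 and 108 UMIs, a level of 85.8 (75.1 to 97.5) against 22.8 (18.7 to 27.6) CPM. 6330411D24Rik had 203 and 116 UMIs, 74.4 (64.5 to 85.4) against 24.5 (20.3 to 29.4) CPM. 9130019P16Rik followed with 139 and 87 UMIs, 51.0 (42.8 to 60.2) against 18.4 (14.7 to 22.7) CPM. 4932443L11Rik had 226 and 144 UMIs, 82.8 (72.4 to 94.4) against 30.5 (25.7 to 35.9) CPM. For each gene the intervals of the libraries did not overlap, which is no independent support, since this ratio chose the genes. Expressed as log2 ratios of WMI to control, these are -1.91 for Gm20713, -1.6 for 6330411D24Rik, -1.51 for Tes, -1.47 for 9130019P16Rik and -1.44 for 4932443L11Rik, which is 3.75-fold to 2.72-fold lower.

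These were the 5 lowest ratios of 5529 genes with at least 200 UMIs, whose median log2 ratio was 0.042, and 18 of those genes lay at or below -1. The 5 genes just outside were Gm15398 (-1.32), Mobp (-1.31), 9630028H03Rik (-1.28), Gm38505 (-1.27) and Gm42439 (-1.25), and Mobp, which encodes a protein of the myelin sheath, was the only coding one. The interval of 4932443L11Rik (-1.76 to -1.14) contained all 5 of these values, so the border between rank 5 and rank 6 is not resolved by the counts. Among all 12754 genes with at least 30 UMIs in precursors, 1.90% were at or below -1, as were all 5 members by their choice.

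Long noncoding genes lay at or below -1 more often than coding genes in these cells. Of genes with at least 200 UMIs, 14 of 245 long noncoding genes (5.71%) and 4 of 5265 coding genes (0.0760%) were there, with medians of -0.084 and 0.045. Without the members the counts were 10 of 241 (4.15%) and 3 of 5264 (0.0570%). With the lower minimum of 30 UMIs the shares were 9.24% and 0.833%, and long noncoding genes at or above 1 made up 3.33% against 3.41% of coding genes. The shares thus differed on the low side and hardly on the high side in precursors. In each of the other 5 classes the share of long noncoding genes at or below -1 was also above that of coding genes, for example 7.09% and 1.27% in astrocyte-like, 11.4% and 1.6% in microglia-like and 6.20% and 0.933% in inhibitory neuron-like cells. Where 4 of 5 members are long noncoding, their low ratios are therefore to be read against these shares.

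**Figure D1:**
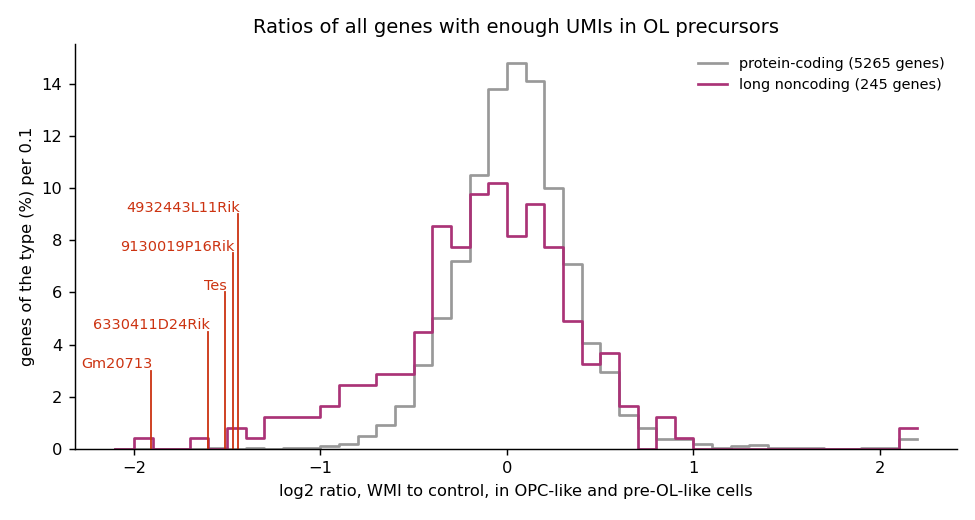
Histogram of the log2 ratio of WMI to control in OL precursors for genes with at least 200 UMIs, in percent of the 5265 coding (grey) and 245 long noncoding genes (purple) per bin of 0.1, with ratios beyond the axis placed in the outer bins. Red lines mark the 5 genes, from -1.91 to -1.44, and their heights carry no value.

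Within OPC-like cells, 4 of the 5 genes passed 30 UMIs and all 4 were at or below -1, against 1.49% of all genes tested there. Gm20713 went from 118 (102 to 135) to 37.5 (30.1 to 46.3) CPM, 4932443L11Rik from 88.6 to 30.6, Tes from 60.5 to 23.3 and 6330411D24Rik from 102 to 40.1. The log2 ratios were -1.65 (-2.03 to -1.28), -1.53 (-1.96 to -1.12), -1.38 (-1.87 to -0.89) and -1.35 (-1.73 to -0.98). The fifth, 9130019P16Rik, was barely present in this stage, with 12 control UMIs and 1 WMI UMI.

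In pre-OL-like cells all 5 passed and 4 were at or below -1, against 1.91% of genes. 9130019P16Rik appeared here at 140 (116 to 166) CPM in the control and 35.7 (28.5 to 44.1) in the WMI library, a log2 ratio of -1.97 (-2.38 to -1.56). Tes was at 47.2 and 16.2 CPM, -1.55 (-2.21 to -0.89), and 4932443L11Rik at 71.4 and 30.3, -1.24 (-1.74 to -0.73). Gm20713 rested on 20 and 21 UMIs with -1.33 (-2.29 to -0.38), and 6330411D24Rik on 17 and 23 UMIs with -0.97 (-1.94 to 0.027), an interval that reaches 0. The members thus divided by stage: Gm20713 and 6330411D24Rik were mostly OPC-like transcripts, with 91.5% and 91.6% of their control precursor UMIs there, 9130019P16Rik was a pre-OL-like transcript with 8.63%, and Tes and 4932443L11Rik were found in both stages, with 71.9% and 71.2%. The stage contrasts use the cells that chose the genes and are no independent support.

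Sub-clusters of the OL lineage divide these UMIs further. In the largest OPC-like sub-cluster (248 control and 193 WMI cells) Tes, Gm20713, 6330411D24Rik and 4932443L11Rik had log2 ratios of -1.19, -1.54, -1.17 and -1.59. A second OPC-like sub-cluster held 53 control and 245 WMI cells and stood apart, with a mitochondrial share of 0.256% and 1.49% and the lowest depth of the OPC-like sub-clusters. There 6330411D24Rik had 7 and 31 UMIs and a ratio of 0.17 (-1.04 to 1.6) and 4932443L11Rik had -0.70 (-1.72 to 0.40), while Tes (-1.59) and Gm20713 (-1.91) had intervals below 0. Without that sub-cluster, an alternative chosen after seeing the data, the 5 ratios in precursors lay between -1.95 and -1.29. In the dividing OPC-like cells (36 and 53, led by Top2a) 6330411D24Rik had 19 and 3 UMIs, a ratio of -3.07 (-5.47 to -1.31), and Gm20713 had 16 and 13, a ratio of -0.71 (-1.88 to 0.44). Both of these genes had fewer there than the 30 UMIs asked for elsewhere. In the pre-OL-like sub-cluster led by Bcas1, Tcf7l2 and Enpp6 (63 and 194 cells), 9130019P16Rik reached 262 CPM in the control and 52.7 in the WMI library, a ratio of -2.32 (-2.80 to -1.85). In the larger pre-OL-like sub-cluster (71 and 239 cells) it had 11 and 18 UMIs and -0.89 (-2.05 to 0.34). In the smallest (19 and 20 cells) it had 11 and 7 UMIs and -0.68 (-2.28 to 0.82). Both of these sub-clusters held fewer than 30 UMIs of it, and their intervals reach above 0.

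Most precursor cells held few of these molecules. Of 490 control precursors 127 (25.9%) had no UMI of any of the 5 genes and 38.8% had UMIs of at least 2 of them. Of 944 WMI precursors 589 (62.4%) had none and 8.90% had at least 2. No cell of either library held all 5. After thinning every cell to 1000 UMIs, 29.8% of control and 9.64% of WMI precursors had a UMI of any of them. The difference was thus also seen at equal depth, but in the cells that chose the genes, so it is no independent support. The median depths before thinning were 5008.5 and 4435 UMIs.

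**Figure D2:**
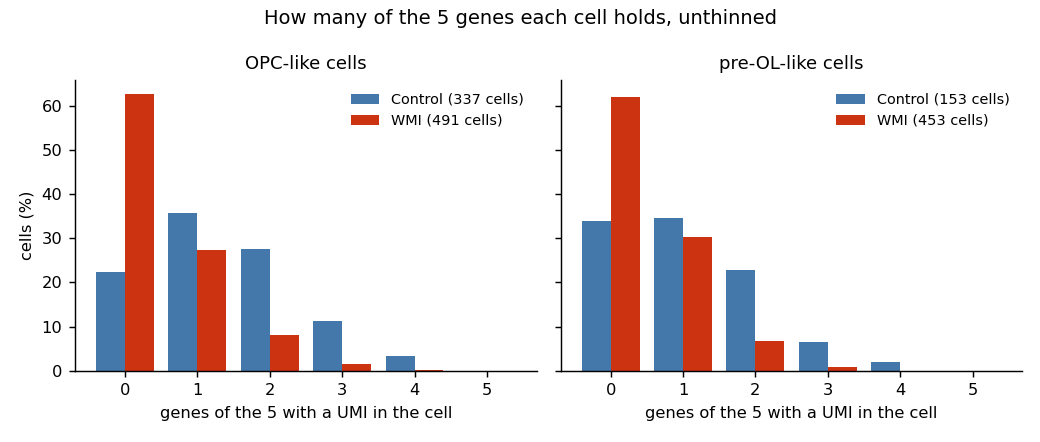
Bars give the percent of OPC-like (left) and pre-OL-like cells (right) that hold a UMI of 0 to 5 of the genes, for control (blue) and WMI cells (red), without thinning. Cells with none made up 22.3% and 62.7% of OPC-like and 34.0% and 62.0% of pre-OL-like cells.

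By gene, the thinned share of positive precursors was 6.12% (4.17 to 8.63) in the control and 2.44% in the WMI library for Tes, 7.14% and 1.91% for Gm20713, 6.53% and 1.38% for 6330411D24Rik, 4.29% and 1.69% for 9130019P16Rik, and 9.80% and 2.54% for 4932443L11Rik. Unthinned, the shares were 24.1% and 9.22% for Tes, 31.6% and 9.96% for Gm20713, 23.1% and 8.26% for 6330411D24Rik, 14.7% and 7.52% for 9130019P16Rik and 34.9% and 13% for 4932443L11Rik. Positive cells also held slightly more molecules in the control library, for example 1.93 against 1.23 UMIs per positive cell for 9130019P16Rik and 1.51 against 1.15 for Gm20713. A gene can gain UMIs from RNA that is free in the droplets. For Tes, none of 463 control and 375 WMI inhibitory neuron-like cells had a thinned UMI, which allows up to 0.794% and 0.979% of cells, at median depths of 9366 and 8335 UMIs. For 9130019P16Rik the astrocyte-like cells had 0.2% and 0.172%, at depths of 4746 and 4757. The precursor shares of both genes lay above these levels in both libraries. Beside microglia-like cells, the WMI intervals overlapped for both genes. They were 1.55% to 3.63% in precursors and 0.722% to 2.11% in microglia-like cells for Tes. For 9130019P16Rik they were 0.972% to 2.74% and 0.139% to 0.998%. Control shares were apart for Tes and overlapped for 9130019P16Rik. In CPM the WMI intervals overlapped for Tes, 15.9 to 24.1 and 9.97 to 17.3. They were apart for 9130019P16Rik, 14.7 to 22.7 and 1.88 to 5.77. The other 3 genes are expressed more widely. Among microglia-like cells, at median depths of 3125.5 and 3130 UMIs, 1.76% and 0.6% (0.242 to 1.23) had a thinned Gm20713 UMI, 2.20% and 0.772% (0.354 to 1.46) one of 6330411D24Rik and 1.98% and 0.6% (0.242 to 1.23) one of 4932443L11Rik. The intervals of the WMI precursors were 1.13% to 3.00%, 0.735% to 2.34% and 1.64% to 3.76%, apart from those of microglia-like cells for 4932443L11Rik and overlapping them for the other 2. In summed UMIs, the WMI precursors lay above the microglia-like cells of the same library for all 3, at 22.8 against 6.39 (4.17 to 9.36) CPM for Gm20713, 24.5 against 6.39 (4.17 to 9.36) for 6330411D24Rik and 30.5 against 5.16 (3.20 to 7.89) for 4932443L11Rik, with intervals apart.

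**Figure D3:**
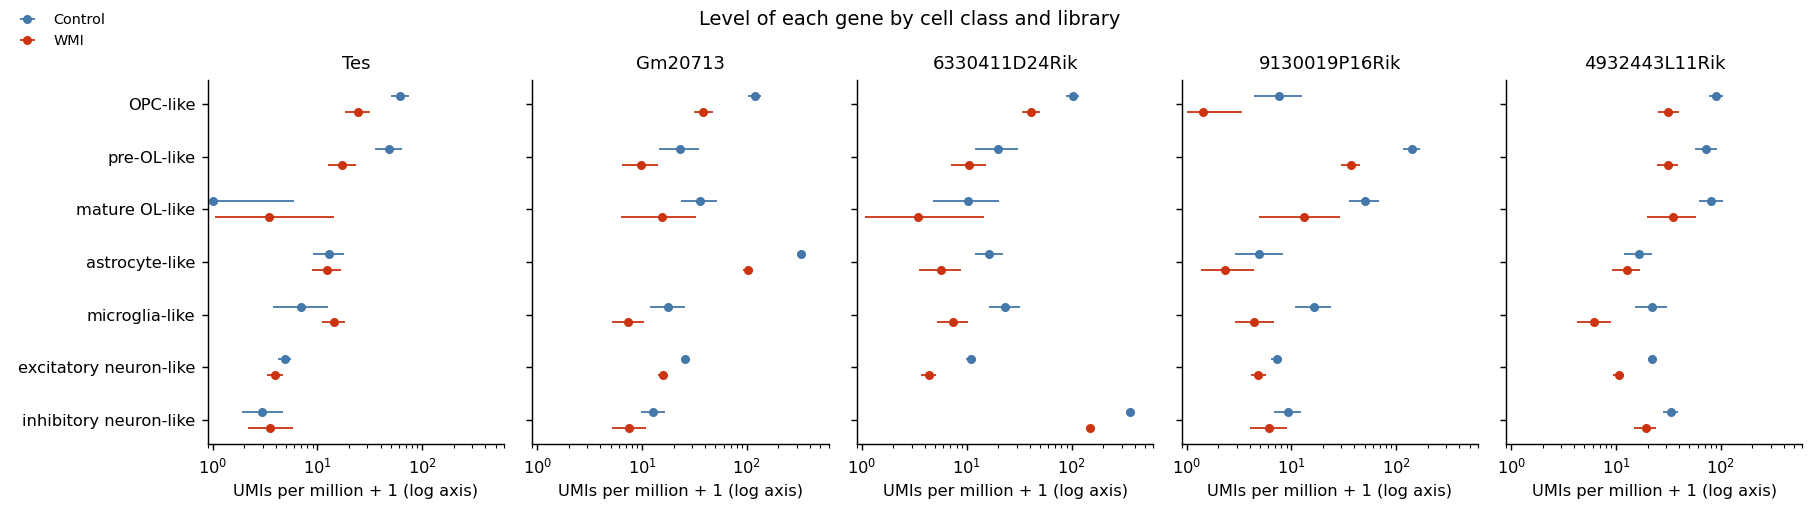
CPM plus 1 (log axis) of each gene in 7 cell classes, for the control (blue) and WMI library (red), with exact Poisson intervals. The genes peak in different classes, and the red points of the noncoding genes lie to the left of the blue ones in all 7 classes, while those of Tes lie to the right in mature OL-like, microglia-like and inhibitory neuron-like cells.

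The 5 genes marked different cells in the control library. Tes was highest in OPC-like (60.5 CPM) and pre-OL-like cells (47.2), whose intervals overlapped, then fell to 11.9 in astrocyte-like, 6.03 in microglia-like, 3.87 in excitatory and 1.96 in inhibitory neuron-like cells, and had no UMI in mature OL-like cells (an upper limit of 4.92). Gm20713 was highest in astrocyte-like cells (324 CPM, 302 to 347), then in OPC-like cells (118). It was at most 34.7 in mature OL-like, pre-OL-like, microglia-like, excitatory and inhibitory neuron-like cells, each taken as a whole class. Within the excitatory class, upper-layer excitatory neuron-like cells were at 49.3 (44.7 to 54.2) CPM and held 419 of 831 Gm20713 UMIs. The unnamed clusters led by 6530403H02Rik and Ntng1 were at 39.6 and 38.3 CPM. 6330411D24Rik was highest in inhibitory neuron-like cells (356), where 1507 of 1634 UMIs came from the cluster named Lhx6 interneuron-like, of which it was the leading gene, at 698 CPM, although the members were kept out of the clustering. That cluster held 59.8% of all its control UMIs, and OPC-like cells came next with 102 CPM. 9130019P16Rik was highest in pre-OL-like (140) and mature OL-like cells (49.4). 4932443L11Rik was spread over the OL lineage, with 88.6 in OPC-like, 80.1 in mature OL-like and 71.4 CPM in pre-OL-like cells, which did not differ beyond their intervals, and 32.2 in inhibitory neuron-like cells. The class with the highest level was the same in the WMI library for each gene apart from 4932443L11Rik, whose 3 OL stages lay between 30.3 and 34.0 CPM.

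Outside the precursors, the counts of the 4 noncoding genes and of Tes are given apart. Of 20 combinations of the 4 noncoding genes with mature OL-like, astrocyte-like, microglia-like, excitatory and inhibitory neuron-like cells, 18 had at least 30 UMIs. The 18 ratios ran from -2.16 to -0.41 with a median of -1.25, and 12 were at or below -1. Over all long noncoding genes tested in these 5 classes, the medians lay between -0.16 and 0.026 and 6.20% to 16.4% were at or below -1. Of the 3 combinations tested for Tes, none was at or below -1. Of coding genes tested in the same classes, 1.27% to 2.37% were there. Whether the genes differ from each other in this way was not tested, since there is 1 library per group.

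**Figure D4:**
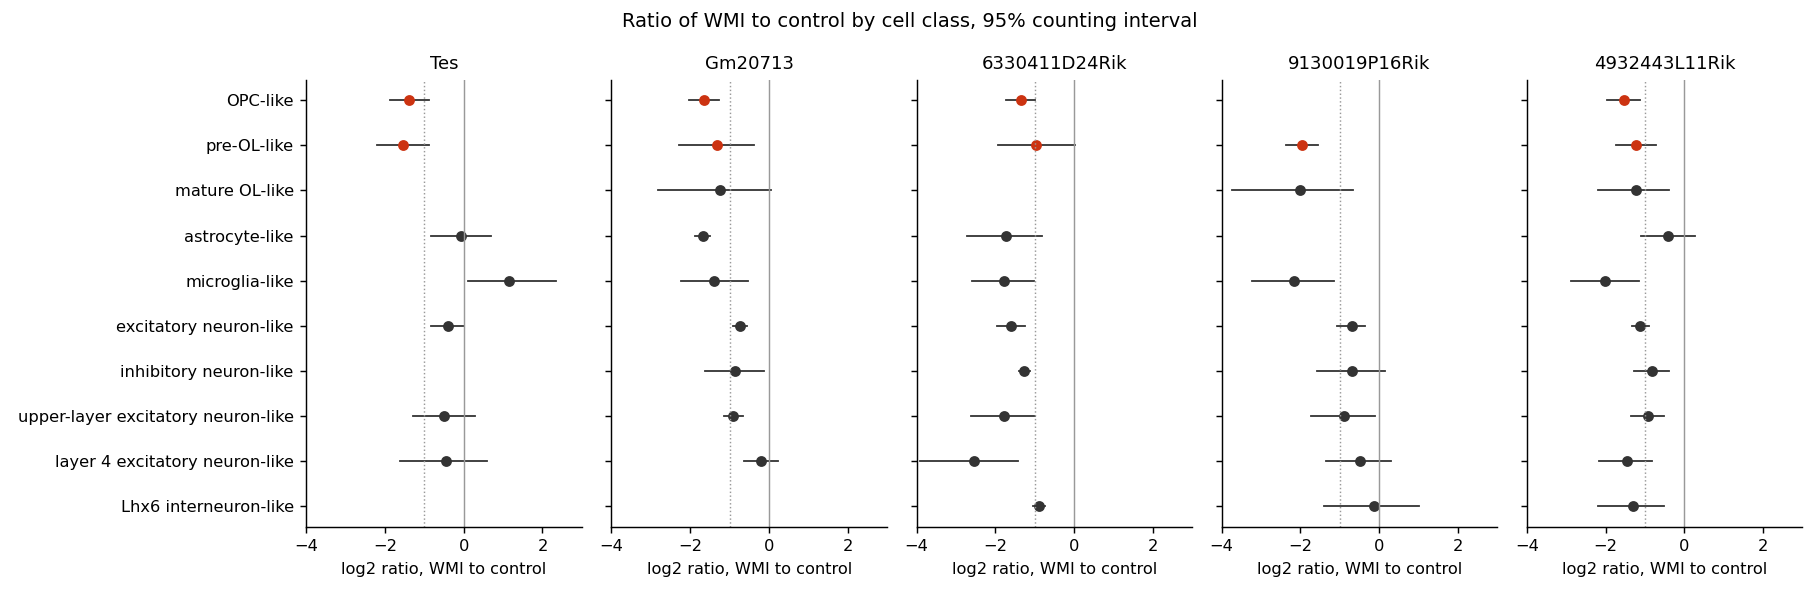
Log2 ratio of WMI to control with its exact 95% counting interval for each gene in 7 classes and 3 neuron subtypes, where at least 30 UMIs were found. Red points are the precursor stages that chose the genes, the dotted line marks -1, and intervals are cut at the axis limit. The 4 noncoding genes lie left of 0 in each class shown, with some intervals that reach above 0. Outside the precursors, Tes lies right of 0 in microglia-like cells. In the other classes shown there it lies between -0.49 and -0.077, with intervals that reach above 0.

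Tes, the testin gene, had 30 UMIs in control and 34 in WMI astrocyte-like cells, 11.9 (8.01 to 16.9) and 11.3 (7.79 to 15.7) CPM, a log2 ratio of -0.077 (-0.83 to 0.68). In microglia-like cells it went from 6.03 (2.76 to 11.5) to 13.3 (9.97 to 17.3) CPM, a ratio of 1.14 (0.11 to 2.34) on 9 and 54 UMIs. Of those 54 UMIs 70.4% came from a microglia-like cluster of 14 control and 461 WMI cells, led by Lrmda, Apobec1 and Abca1. Without that cluster the ratio was 0.34 on 8 and 16 UMIs, so the higher level rests on a cluster that the control library hardly holds. In that cluster 1 cell of 56953 UMIs held 16 of the 54, and without this cell alone, an alternative chosen after seeing the data, the level was 9.47 CPM and the ratio 0.65 (-0.42 to 1.88). The share of cells with a Tes UMI was 1.98% and 3.09%, and the interval of this difference, -0.868 to 2.69 percentage points, contains 0. In excitatory neuron-like cells Tes stood at 3.87 (3.23 to 4.59) and 2.92 (2.29 to 3.67) CPM, -0.40 (-0.84 to 0.019), and in inhibitory neuron-like cells it had 9 UMIs in each library. Over all kept cells it had 387 and 325 UMIs and a ratio of -0.20 (-0.42 to 0.017). Tes was therefore at or below -1 in both precursor stages and in none of the 3 other classes with at least 30 UMIs.

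Gm20713 was lower in astrocyte-like cells, where it is most abundant: 819 control and 306 WMI UMIs, 324 (302 to 347) and 101 (90.2 to 113) CPM, a log2 ratio of -1.68 (-1.87 to -1.49), or 3.20-fold. The share of astrocyte-like cells with a UMI after thinning was 24.8% and 9.78%, and unthinned it was 69.1% and 31.2%, at equal median depths of 4746 and 4757 UMIs. In microglia-like cells the ratio was -1.39 (-2.24 to -0.54) on 25 and 26 UMIs. It was -1.25 (-2.82 to 0.062) in mature OL-like cells on 26 and 6 UMIs, -0.85 (-1.62 to -0.12) in inhibitory neuron-like cells, where 1 WMI cell held 6 of the UMIs and the ratio without it was -1.28, and -0.73 (-0.91 to -0.55) in excitatory neuron-like cells on 831 and 369 UMIs. The interval in excitatory neuron-like cells did not overlap that in astrocyte-like cells, whereas that in inhibitory neuron-like cells did. The microglia-like class includes the cluster of 14 control and 461 WMI cells described for Tes. In the microglia-like cluster of 428 and 661 cells alone, Gm20713 was at -1.07 (-2.13 to -0.040). There 6330411D24Rik was at -1.44 (-2.42 to -0.51) and 4932443L11Rik at -1.76 (-2.94 to -0.69). 9130019P16Rik had 22 and 7 UMIs there, fewer than the 30 asked for.

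6330411D24Rik was at or below -1 in each of the 4 classes outside the OL lineage, although with predicted doublets kept it was at -0.82 in astrocyte-like cells. In inhibitory neuron-like cells it had 1634 and 524 UMIs, 356 (339 to 374) and 149 (136 to 162) CPM, a log2 ratio of -1.26 (-1.40 to -1.12). Within the Lhx6 interneuron-like cluster, which made up 210 of 463 control and 125 of 375 WMI inhibitory neuron-like cells, it was at 698 (664 to 735) and 376 (342 to 412), a ratio of -0.89 (-1.05 to -0.74). There 77.6% of control and 55.2% of WMI cells had a UMI, 43.3% and 28.0% after thinning, and single cells held up to 33 and 42 UMIs. In Sst interneuron-like cells the ratio was -0.53 (-1.11 to 0.027) and in Adarb2 interneuron-like cells -0.73 (-1.46 to -0.0059). No inhibitory subtype with at least 30 UMIs was thus at or below -1, unlike the class as a whole. The part of the mix of subtypes in the class ratio was not tested. In astrocyte-like, microglia-like and excitatory neuron-like cells the ratios were -1.74 (-2.73 to -0.82), -1.79 (-2.59 to -1.01) and -1.59 (-1.95 to -1.24), at control levels of 15.4, 22.1 and 9.97 CPM. These levels are far under that of the interneurons, and how much of them is free RNA was not tested.

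9130019P16Rik was lower in mature OL-like cells, with 37 and 5 UMIs, 49.4 (34.8 to 68.1) and 12.1 (3.94 to 28.4) CPM, -2.02 (-3.73 to -0.67). Together with the pre-OL-like cells this covers the classes in which it is abundant. In microglia-like cells it had 23 and 14 UMIs and -2.16 (-3.24 to -1.14), in excitatory neuron-like cells -0.70 (-1.07 to -0.35), and in inhibitory neuron-like cells -0.70 (-1.59 to 0.15). Astrocyte-like cells held 10 and 4 UMIs, too few for a ratio.

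4932443L11Rik was lower in mature OL-like cells with 60 and 14 UMIs, 80.1 (61.1 to 103) and 34.0 (18.6 to 57.1) CPM, a log2 ratio of -1.24 (-2.19 to -0.38), so that all 3 OL stages had intervals below 0. It was at -2.01 (-2.88 to -1.16) in microglia-like, -1.12 (-1.34 to -0.91) in excitatory and -0.83 (-1.27 to -0.40) in inhibitory neuron-like cells. In astrocyte-like cells it stood at 15.4 (11 to 21.1) and 11.6 (8.07 to 16.1) CPM, -0.41 (-1.11 to 0.28), the only class outside the precursors in which a noncoding member was above -0.5.

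As a background to these counts, 1.98% of 12306 genes were at or below -1 in astrocyte-like cells, 2.69% of 12664 in microglia-like, 5.37% of 5234 in mature OL-like, 4.66% of 18614 in excitatory and 1.72% of 12477 in inhibitory neuron-like cells. Among long noncoding genes alone the shares were 7.09%, 11.4%, 16.4%, 11.3% and 6.20% in the same order. The members called there were 2 of 4 tested, 4 of 5, 3 of 3, 2 of 5 and 1 of 4. Genes at or above 1 made up 7.31% in astrocyte-like and 8.91% in microglia-like cells. Ranked from the lowest, 6330411D24Rik was 41st of 12306 genes in astrocyte-like cells and 41st of 12664 in microglia-like cells. Gm20713 was 47th and 4932443L11Rik 1582nd in astrocyte-like cells, and Tes was 4031st in astrocyte-like and 11743rd in microglia-like cells. Of 18614 genes in excitatory neuron-like cells, 6330411D24Rik was 190th, 4932443L11Rik 614th, Gm20713 1635th, 9130019P16Rik 1761st and Tes 3835th. The excitatory class contains a cluster of 1181 control and 16 WMI cells of low depth, and without it the ratios of the 5 genes in this class were -0.41, -0.74, -1.39, -0.72 and -1.11 in the order Tes, Gm20713, 6330411D24Rik, 9130019P16Rik and 4932443L11Rik.

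In neuron subtypes the ratios ranged from -2.54 to 0.23. Of 26 combinations of a gene with 8 subtypes that had at least 30 UMIs, 10 were at or below -1. In upper-layer excitatory neuron-like cells 1 of 5 genes was at or below -1 (background 2.14%), 6330411D24Rik with -1.77 (-2.63 to -0.98), while Gm20713 (-0.90), 4932443L11Rik (-0.93) and 9130019P16Rik (-0.89) had intervals below 0 and Tes had -0.49 (-1.29 to 0.28). In layer 4 excitatory neuron-like cells 2 of 5 were there (2.78%), 6330411D24Rik with -2.54 (-3.91 to -1.43) on 76 and 7 UMIs and 4932443L11Rik with -1.46 (-2.16 to -0.82), whereas Gm20713 was at -0.20 (-0.64 to 0.22). In layer 5 excitatory neuron-like cells 1 of 2 tested was there (2.43%), 4932443L11Rik with -1.64 (-2.66 to -0.72), and Gm20713 was at 0.23 (-0.62 to 1.10), the one value above 0. In near-projecting excitatory neuron-like cells it was 1 of 2 (1.95%), Gm20713 with -2.01 (-3.58 to -0.70). In layer 6 corticothalamic neuron-like cells 4 of 4 tested were there (3.12%), with intervals that reached above 0 for 3 of them, and in Lhx6 interneuron-like cells 1 of 3 (1.97%), 4932443L11Rik with -1.31 (-2.19 to -0.52). None of 3 was there in Sst (1.51%) and none of 2 in Adarb2 interneuron-like cells (1.70%). Neuroblast-like, fibroblast-like and endothelial-like cells held fewer than 30 UMIs of each gene.

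Gm4876, Evi5l, Chn2 and Gpc5, genes on the opposite strand, had ratios closer to 0 in OL precursors. Each had at least 200 UMIs there, and the members were chosen as the lowest ratios of such genes. The contrast in precursors therefore follows from the choice and is no independent support. Gm4876, which covers Tes, was at 826 and 741 CPM in OPC-like cells, a log2 ratio of -0.16 (-0.26 to -0.057), and at 0.24 (0.089 to 0.39) in pre-OL-like cells. Evi5l, which encodes a Rab GTPase-activating protein and runs opposite to 4932443L11Rik, was at -0.13 (-0.32 to 0.062) and -0.15 (-0.41 to 0.11) in these stages. Chn2, which encodes the Rac GTPase-activating protein beta2-chimaerin and lies opposite to 9130019P16Rik, was at 1089 and 883 CPM in pre-OL-like cells, -0.30 (-0.41 to -0.19). The intervals of these 3 lay apart from those of their partners in the same cells. Gpc5, which was one of the astrocyte markers used here, was below 0 in 4 glial classes, as Gm20713 was: -0.20 (-0.25 to -0.14) in OPC-like, -0.57 (-0.72 to -0.43) in pre-OL-like, -0.78 (-0.82 to -0.75) in astrocyte-like and -0.73 (-0.84 to -0.61) in microglia-like cells. In mature OL-like cells it was above 0, at 0.36 (0.14 to 0.59), where Gm20713 was at -1.25. In excitatory neuron-like cells it was at 0.079 (0.051 to 0.11), where Gm20713 was at -0.73. Coding neighbours of 6330411D24Rik in precursors were at 0.60 (0.46 to 0.75) for Kazn and -0.13 (-0.37 to 0.12) for Prdm2.

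**Figure D5:**
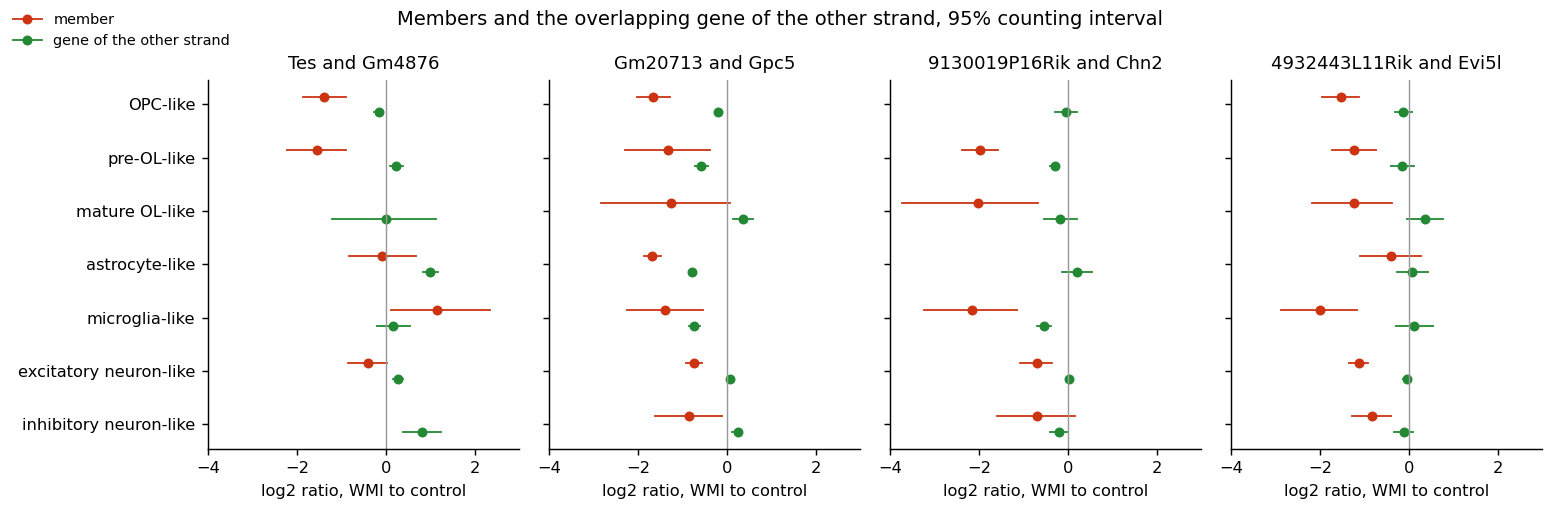
Log2 ratio of WMI to control with its 95% counting interval for 4 members (red) and the overlapping gene of the other strand (green) in 7 classes, where at least 30 UMIs were found. In the precursor stages shown each member lies left of its partner, with intervals apart except for Gm20713 and Gpc5 in pre-OL-like cells. The precursor stages chose the members, so this order is no independent support.

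Reads of a gene and its antisense partner can be told apart only where strand is used in counting, and how the strand and introns were counted is not given in the sources used here. Of the 6835 exonic bases of Tes, 144 (2.11%) lie over exons of Gm4876. For Gm20713 107 of 435 bases (24.6%) lie over Gpc5 exons, for 4932443L11Rik 672 of 2827 (23.8%) over Evi5l exons and for 9130019P16Rik 552 of 5566 (9.92%) over Chn2 exons. Over introns of the same partners lie 97.9% of the exonic bases of Tes, 75.4% of Gm20713, 57.2% of 4932443L11Rik and 37.7% of 9130019P16Rik. Of the exonic bases of 9130019P16Rik, 30.2% also lie over introns of Gm15527 on the same strand, which strand cannot tell apart. The values of these genes carry that uncertainty, which is larger if introns were counted.

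The genes most like each member over the 17 control classes with at least 50 cells, by Pearson correlation of log2(CPM + 1), included its antisense partner for 3 members. For Gm20713 they were Gpc5 (r = 0.933), Cpeb4 (0.821) and Gm40578 (0.779), for Tes they were Ampd3 (0.892), Chst11 (0.877) and Gm4876 (0.864), and for 4932443L11Rik they were Evi5l (0.877), Rtkn (0.869) and Gltp (0.857). 6330411D24Rik was most like Eya4 (0.834), Kcnc2 (0.830), a potassium channel gene of fast-spiking interneurons, and Shd (0.821), and 9130019P16Rik most like Ggct (0.871), 1110008L16Rik (0.858) and Nfasc (0.856). Genes with under 200 control UMIs were left out of this ranking, among them Gm15527, which overlaps 9130019P16Rik on the same strand and had 89 UMIs and an r of 0.861 with it. The classes share 1 library, and these values only describe likeness. Among the members themselves r lay between -0.0562 and 0.511, the highest for 4932443L11Rik and 9130019P16Rik.

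Other genes of adhesion sites were counted as well. Of a list of 40 genes for partners of testin, LIM proteins and focal adhesions, 36 were tested in precursors, and none was at or below -1 or at or above 1. Of all genes tested there, 1.90% were at or below -1 and 3.42% at or above 1, so such a count is near that share. The list's median log2 ratio was 0.0067, beside 0.043 for all genes tested. The lowest was Lmcd1, a LIM protein, at -0.58 (-1.12 to -0.045), and the highest was Zyx, which encodes the testin partner zyxin, at 0.97 (-0.078 to 2.15) on 10 and 34 UMIs, followed by Pxn (paxillin) at 0.68 (0.30 to 1.07). Src and Gria2 were at -0.33 and -0.35, and Bcar1 at 0.56 (0.25 to 0.87).

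Measures of the libraries moved with these results, and their part in the results was not tested. Mitochondrial UMIs made up 0.164% of control and 1.04% of WMI precursor UMIs, and 0.202% and 0.375% in astrocyte-like cells. Summed over 10 microglial markers, precursors had 172 and 555 CPM, a log2 ratio of 1.69, and a like rise was seen in astrocyte-like (1.70) and inhibitory neuron-like cells (1.64). All 10 were found in both libraries. Marker sums of astrocytes (12 of 12 found) and excitatory neurons (10 of 10) were lower in WMI precursors, at -0.42 and -0.43, and those of inhibitory neurons (7 of 7) were at 0.018. For the Lhx6 interneuron list (6 of 6 found), the class in which 6330411D24Rik is highest, the sum in precursors was 3933 and 4484 CPM, 0.19 (0.16 to 0.22). That list does not measure interneuron RNA alone, since it summed to 4311 CPM in control OPC-like, 5776 in inhibitory neuron-like and 1186 in astrocyte-like cells. Astrocyte markers within OPC-like cells alone were at 4390 and 4026 CPM, -0.13, beside -1.65 for Gm20713. The astrocyte list does not measure astrocyte RNA alone either, since it contains Gpc5, the gene opposite to Gm20713. Gpc5 by itself had 3291 and 2874 CPM in OPC-like cells. In all precursors it had 2424 and 1646 CPM, where the list summed to 3349 and 2502 CPM.

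The libraries also differed in the sex of their cells. Xist, which is transcribed from the inactive X chromosome of female cells, had 5 UMIs in 8755 control cells and was found in 4772 of 7571 WMI cells. UMIs of Y-linked genes were found in 6477 control and 4508 WMI cells, so the WMI library held cells of both sexes. In the 592 WMI precursors with a Xist UMI, Tes was at 19.3 (14.6 to 24.9) and Gm20713 at 25.3 (19.9 to 31.6) CPM. In the 352 without one they were at 20.3 (14.2 to 28.3) and 18.6 (12.7 to 26.3). The other 3 genes lay at 22.6, 17.3 and 30.9 with and at 27.9, 20.3 and 29.6 without a Xist UMI, in the order 6330411D24Rik, 9130019P16Rik and 4932443L11Rik. In the 250 WMI precursors with a Y-linked UMI and no Xist UMI, the levels were 21.6 for Tes, 17.9 for Gm20713, 26.8 for 6330411D24Rik, 23.9 for 9130019P16Rik and 28.3 CPM for 4932443L11Rik. In all of these parts each gene was under the control level with intervals apart. The parts divide the cells that chose the genes, so this is no independent support, and the part of sex was not tested. Outside the precursors, Gm20713 in WMI astrocyte-like cells was at 103 (89.9 to 118) CPM with and 97.0 (77.9 to 119) without a Xist UMI. Tes in WMI excitatory neuron-like cells was at 2.20 (1.57 to 3.01) with and 4.66 (3.23 to 6.51) without one, beside 3.87 (3.23 to 4.59) in the control library. Of 4 genes known to differ between C57BL/6 substrains, 3 were tested in precursors (Nnt, Wdfy1 and Ide), at 0.85 (-0.34 to 2.21), 0.32 (0.020 to 0.63) and 0.048 (-0.36 to 0.47), and none passed -1 or 1 there. Of all genes tested in precursors, 1.90% were at or below -1 and 3.42% at or above 1. Nnt was past 1 in astrocyte-like cells, at 1.20 (0.21 to 2.29), and in microglia-like cells, at 1.11 (0.078 to 2.32) on 9 and 53 UMIs. Of all genes, 7.31% and 8.91% were at or above 1 in these classes. Wdfy1 was at 0.82 (0.46 to 1.18) in microglia-like cells. None passed -1 or 1 in mature OL-like, excitatory or inhibitory neuron-like cells. There 1.72% to 5.37% of all genes were at or below -1 and 2.08% to 2.95% at or above 1. The part of substrain was not tested.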

How the data were processed

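The authors deposited UMI counts per gene and barcode for 2 libraries, made with Cell Ranger 6.1.1 per the file headers and left without normalization. The submitters' processing notes name Seurat and mm9, whereas all gene identifiers match GENCODE M21 on GRCm38. How introns and strand were counted and whether animals were pooled is not given in the sources used here. The features and barcodes tables that were deposited hold gene identifiers, symbols and barcodes, and no other unit.

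The control library held 66470806 UMIs in 10288 barcodes and the WMI library 60568639 in 8354. Barcodes were dropped when they had under 1000 UMIs, under 500 genes or a mitochondrial share over 10% (748 and 241), as were predicted doublets at a rate of 0.8% per 1000 barcodes (785 and 542), found by their likeness to simulated pairs of cells. Cells were integrated and clustered by Seurat 5.3.0 (R 4.3.3) at resolution 0.8, from 30 dimensions of 2000 variable features that left out the members. Of 34 clusters, those that carried at least 60% of a marker list and were not led by mitochondrial, haemoglobin or another class's genes were named, and OL-lineage cells were clustered again. Thresholds for naming were set after a look at the clusters.

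UMIs were summed per library and class. Levels are CPM (UMIs per 1000000 UMIs of the class) with exact Poisson intervals. Log2 ratios have exact conditional binomial intervals, and shares have Clopper-Pearson intervals with each cell thinned to 1000 UMIs. A gene with at least 30 UMIs over both libraries in a class was tested against a fold of 2, and this count past a fold is no statistical test. A count of 0 was read with the upper limit of its interval. The ratios were checked on simulated data. The members, the gene lists and the rules for naming genes (the members, the 5 ranks outside, 3 genes by likeness, overlapping and neighbouring genes, list genes with the lowest and highest ratios) were chosen with earlier results of these data known. Alternatives concerned doublets, resolution, cell filters, naming without clusters, denominators, weights, Xist, stages, 1-library clusters and single cells. Sums and intervals were computed in Python 3.11.15 (scipy 1.17.1, scikit-learn 1.9.0, pandas 2.3.3, numpy 2.4.6, matplotlib 3.10.9).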

Additional observations from a re-analysis of the deposited data

Results flagged for a closer look

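The ratios of Tes lay on opposite sides of 0 in different cells of the same libraries. Its log2 ratio of WMI to control was 1.14 (0.11 to 2.34) in microglia-like cells, and -1.51 (-1.90 to -1.13) in all OL precursors, -1.38 in OPC-like and -1.55 in pre-OL-like cells. The difference between the classes was not tested, since each group is 1 library, and the precursor cells chose the gene. The microglial value rests on 9 control and 54 WMI UMIs, of which 38 came from a cluster of 14 control and 461 WMI cells, and without that cluster it was 0.34. In the same cluster 1 cell held 16 of the 54, and without that cell the ratio was 0.65 (-0.42 to 1.88), an interval that reaches below 0.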

How the results depend on the processing

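No paired analysis was possible because each group is 1 library. Under 14 alternatives, 408 values of 35 log2 ratios were recomputed: 393 lay within the counting interval of the reported ratio, 15 did not and none took a ratio at or below -1 to above 0. In precursors the ranges were -1.58 to -1.46 for Tes, -2.2 to -1.49 for Gm20713, -1.82 to -1.16 for 6330411D24Rik, -2.95 to -1.29 for 9130019P16Rik and -1.63 to -1.38 for 4932443L11Rik. The mean of both stages gave -1.49 for Gm20713, -1.16 for 6330411D24Rik and -2.95 for 9130019P16Rik, the last from 1 WMI UMI in OPC-like cells. Without WMI cells that hold a Xist UMI, Gm20713 was at -2.04 in OPC-like cells and Tes at 0.27 in excitatory neuron-like cells. Classes from summed marker UMIs per cell gave, in excitatory neuron-like cells, 0.29 for Tes (4 and 4 UMIs), -1.24 for Gm20713 and -2.52 for 4932443L11Rik, and -1.41 for 6330411D24Rik in inhibitory neuron-like cells. With doublets kept, 6330411D24Rik was at -0.82 in astrocyte-like cells, past the fold no longer, and at -1.44 in inhibitory neuron-like cells, and Gm20713 was at -0.94 in excitatory neuron-like cells. A resolution of 0.4 gave -1.0 for the latter, a resolution of 1.6 gave -1.69 for 6330411D24Rik in inhibitory neuron-like cells, and equal weights for cells gave -2.19 for it in excitatory neuron-like cells. Without the cell that holds the most UMIs of a gene in a class, Tes in microglia-like cells was at 0.65 and Gm20713 in inhibitory neuron-like cells at -1.28, now past the fold. The causes were not tested. Differences in the share of positive precursors, in percentage points and in the order Tes, Gm20713, 6330411D24Rik, 9130019P16Rik and 4932443L11Rik, were -3.69, -5.24, -5.15, -2.59 and -7.25, and without thinning -14.9, -21.7, -14.8, -7.17 and -21.9. Thinning to 2000 UMIs gave -10.3 for Gm20713 and -5.79 for 9130019P16Rik. The share of genes past the fold fell with a minimum of 100 UMIs to 0.684% in precursors, 0.405% in OPC-like, 0.872% in pre-OL-like, 2.77% in mature OL-like, 1.04% in astrocyte-like, 1.10% in microglia-like, 2.35% in excitatory and 0.502% in inhibitory neuron-like cells. With a fold of 1.5 it was 6.99%, 5.64%, 7.70%, 17.4%, 7.60%, 10.1%, 12.8% and 6.61% in the same order.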

Other observations

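The unnamed clusters, which enter no comparison above, also held the genes, and these values were chosen after they were seen. In a cluster of 80 control and 100 WMI cells led by Ntng1, Gm20713 had 32 and 10 UMIs, a log2 ratio of -2.28 (-3.47 to -1.22), and 4932443L11Rik had 20 and 11, a ratio of -1.47 (-2.68 to -0.34). In a cluster of 52 control and 609 WMI cells led by 6530403H02Rik, Gm20713 had 23 and 39 UMIs, a ratio of -2.87 (-3.65 to -2.06). There 4932443L11Rik was at -1.17 (-1.95 to -0.30), 6330411D24Rik at -0.89 (-2.14 to 0.64) and 9130019P16Rik above 0, at 0.18 (-1.81 to 3.29). The share of all genes at or below -1 was not computed for these clusters. The largest unnamed cluster held 2347 control and 49 WMI cells, so no ratio is read from it.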
